A study of Rattus norvegicus with 30 samples.

Results

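The 44 genes described here act in mitosis (29 genes) or in DNA replication (15 genes). They were chosen by name from general lists of cell cycle genes, with earlier results of these data known. Counts over the classes are therefore a description without a test. Of them 43 were found among the 32545 genes of the deposited table, 28 mitotic and 15 replication genes. *Ccnb2*, which encodes cyclin B2, was not found under that name, and only its promoter is described here. Counts came from poly(A)-selected mRNA of the right renal cortex (Cx) and outer medulla (OM) of male Sprague-Dawley rats. Rats ate AIN-76A chow with 0.4% NaCl (LS), or chow with 4.0% NaCl for 14 d (HS14) or 21 d (HS21), with 5 libraries per tissue and diet and 30 in all. The LS groups carry no day in their labels, and age at collection was not given in the sources used here, so diet and time cannot be told apart. The study's methods describe a flow probe and catheters implanted at the left kidney under anaesthesia before the change of diet, and name surgery as a limit of the tissue data, without saying which of the sequenced rats had been operated on. The kidneys of each group were dissected into both tissues, but neither labels nor methods say whether a Cx and an OM library with the same number came from the same rat.

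OM HS14 replicate 10 had the lowest total of assigned read pairs, 5408126, and all other libraries had 12748841 to 21842843. By the study's mapping results this library also had the lowest share of reads mapped. Its share of bases in exons was the lowest of all libraries, and that in introns the highest. Markers of the labelled tissue were present in every group, with thick ascending limb markers summing to 1570 to 2150 CPM (counts of a gene relative to the scaled library total) in Cx LS and to 10300 to 21500 CPM in OM LS. In OM LS replicate 2 the proximal tubule markers summed to 25500 CPM, against 3810 to 14000 CPM in the other OM LS libraries, and the distal convoluted tubule markers to 434 CPM against 25.3 to 40.2 CPM. OM HS14 replicate 10 and OM LS replicate 2 stand apart, and OM values are given with and without them where they decide a value. Because whole tissue was sequenced, fewer dividing cells and less RNA per dividing cell cannot be told apart.

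A dividing cell first copies its DNA and then separates the copies. For replication, *Cdc6* and *Cdt1* load the MCM helicase onto origins, *E2f1* and the E cyclins start S phase, *Pcna* clamps the polymerase to DNA, and ribonucleotide reductase and thymidylate synthase supply nucleotides. Mitosis is driven by *Cdk1* with cyclins A and B, and by the Polo and Aurora kinases, followed by the spindle, the kinetochore, the anaphase-promoting complex and the machinery of cytokinesis. Transcripts of the mitotic genes peak in G2 and M phase and are low in resting cells, whereas several replication genes, such as *Pcna* and *Mcm7*, are also read in cells that do not divide, for DNA repair and for other uses. Tubular cells of the adult kidney divide rarely.

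All 28 mitotic genes had ratios of HS to LS below 0 in both tissues and at both times, and the median ratios of the replication genes were nearer to 0. In the Cx at HS21, 22 of the 28 mitotic genes were lowered and none was raised, where 20.5% of all 14299 genes tested were lowered and 18.9% were raised. In the same comparison 1 of the 15 replication genes was raised (*Mcm3*) and 2 were lowered (*Rrm1* and *Rrm2*). Both HS groups were compared with the same LS libraries, so those comparisons are not independent. The median log2 ratio of HS21 to LS was -0.98 over the mitotic genes, -0.01 over the replication genes and 0.00 over all genes tested. Raised and lowered mean an adjusted *P* under 0.05 in edgeR's quasi-likelihood test, adjusted over all genes tested.

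The mean log2 CPM of the 28 mitotic genes was 3.01, 2.64, 3.16, 3.26 and 2.66 in the Cx LS libraries, 1.44, 2.46, 2.13, 2.27 and 2.10 at HS14, and 1.70, 1.96, 1.96, 1.92 and 2.30 at HS21. All 10 HS libraries of the Cx lay below all 5 LS libraries. In the OM it was 2.97, 2.70, 2.79, 2.84 and 2.43 on LS, 1.69, 2.32, 1.96, 1.88 and 1.43 at HS14, and 1.59, 1.87, 2.06, 1.52 and 2.06 at HS21, again with no overlap between LS and either HS group. The mean of the 15 replication genes ran from 2.95 to 3.14 in Cx LS, from 2.44 to 2.96 at HS14 and from 2.97 to 3.08 at HS21, so that the groups overlapped. In the OM it ran from 3.02 to 3.65 on LS, from 2.70 to 3.28 at HS14 and from 2.90 to 3.36 at HS21, with overlap as well. The members of each class were chosen with earlier results known, so these means are a description without a test.

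**Figure D1:**
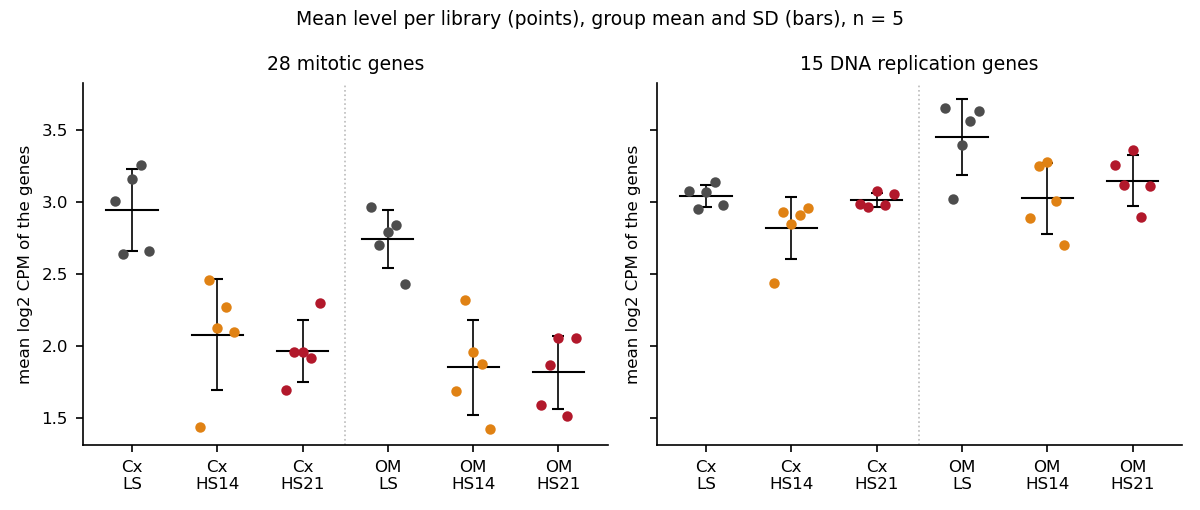
Mean log2 CPM of the 28 mitotic genes (left) and of the 15 DNA replication genes (right) in each of the 30 libraries, with the group mean and SD (n = 5 libraries per group). Mitotic means of LS libraries (2.64 to 3.26 in the Cx, 2.43 to 2.97 in the OM) lie above those of every HS library of the same tissue, while the replication means of LS and HS libraries overlap in both tissues.

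The promoters of the mitotic and the replication genes held some short sequences at different shares and CCAAT at similar shares. RefSeq promoters of the rat genome build GRCr8, from 250 bases before to 50 bases after the transcription start, were available for 33 of the 44 genes, 23 mitotic (*Ccnb2* among them) and 10 replication genes, and were read on both strands. The cell cycle gene homology region, searched as TTTGAA, is bound by MuvB complexes and is known from promoters of G2 and M phase genes. It was present in 17 of 23 mitotic promoters (73.9%), in 1 of 10 replication promoters (10%) and in 18.3% of the 33469 promoters of the table. CCAAT, the box bound by NF-Y, was present in 69.6% of the mitotic, 60.0% of the replication and 37.5% of all promoters, and both motifs together in 56.5%, 0 of 10 and 7.41%. An E2F element, searched as TTCCCGC or TTGGCGC, was present in 4 mitotic promoters (17.4%), 7 replication promoters (70.0%) and 6.26% of all. TTGGCGC read on the other strand can share bases with CCAAT. A match is a description of the letters, not a bound site. The other mitotic genes, a further list of 50, were matched to 45 promoters, of which 64.4% held TTTGAA and 17.8% an E2F element. Of 45 promoters matched to 50 other replication genes, 17.8% held TTTGAA and 55.6% an E2F element.

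**Figure D2:**
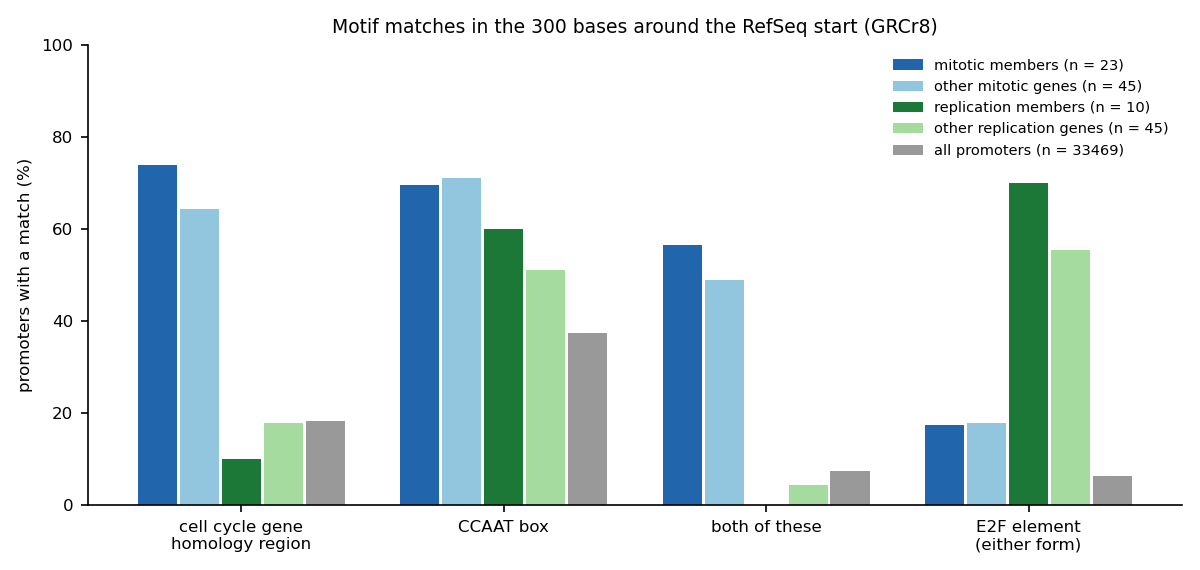
Share of promoters (%, vertical axis) with a match to each motif, by gene set, with the number of promoters in the legend. TTTGAA was found in 73.9% of the mitotic members and 10% of the replication members, and an E2F element in 17.4% and 70.0%, against 18.3% and 6.26% of all promoters.

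Windows of 120 bases that end at the base before the start are shown for 6 mitotic genes whose transcripts were lowered in the Cx, with TTTGAA and CCAAT in capitals on either strand (TTCAAA and ATTGG on the other strand), together with any E2F element. *Ccnb1* has CCAAT boxes and no TTTGAA in its promoter, and in *Mki67* a TTTGAA shares bases with a CCAAT box on the other strand.
*Cdk1* (chr20:19265173-19265292, + strand): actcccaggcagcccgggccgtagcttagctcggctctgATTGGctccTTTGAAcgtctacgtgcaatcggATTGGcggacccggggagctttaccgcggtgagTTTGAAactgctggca
*Prc1* (chr1:143659361-143659480, + strand): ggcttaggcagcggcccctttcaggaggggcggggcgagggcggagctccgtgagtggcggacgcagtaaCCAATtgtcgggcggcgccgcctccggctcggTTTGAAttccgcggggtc
*Cdc20* (chr5:137255800-137255919, - strand): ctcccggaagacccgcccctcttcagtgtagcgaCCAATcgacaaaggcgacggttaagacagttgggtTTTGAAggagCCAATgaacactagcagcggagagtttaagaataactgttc
*Mki67* (chr1:199952594-199952713, - strand): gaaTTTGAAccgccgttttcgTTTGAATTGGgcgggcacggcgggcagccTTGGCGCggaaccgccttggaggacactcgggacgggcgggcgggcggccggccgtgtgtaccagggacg
*Top2a* (chr10:84473094-84473213, - strand): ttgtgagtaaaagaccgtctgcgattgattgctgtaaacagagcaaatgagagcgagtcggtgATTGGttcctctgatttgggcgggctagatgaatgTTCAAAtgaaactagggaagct
*Ccnb1* (chr2:33655226-33655345, - strand): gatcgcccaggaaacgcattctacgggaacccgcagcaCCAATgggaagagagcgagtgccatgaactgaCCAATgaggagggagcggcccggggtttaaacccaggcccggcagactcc

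The same windows of 5 replication genes, shown because each carries an E2F element and none carries TTTGAA, are given in the same way. Of the 6 mitotic windows above, that of *Mki67* also holds an E2F element. In *Mcm7* the E2F element shares bases with a CCAAT box, and in *Mcm3* the last base of the element lies beyond the window.
*Mcm3* (chr9:30733747-30733866, - strand): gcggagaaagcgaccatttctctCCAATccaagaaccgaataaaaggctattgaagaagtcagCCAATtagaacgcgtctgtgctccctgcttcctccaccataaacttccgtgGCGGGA
*Mcm5* (chr19:13488693-13488812, + strand): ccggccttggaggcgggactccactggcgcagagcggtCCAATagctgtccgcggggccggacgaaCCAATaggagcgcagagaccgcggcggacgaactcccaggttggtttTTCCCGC
*Mcm6* (chr13:42404353-42404472, - strand): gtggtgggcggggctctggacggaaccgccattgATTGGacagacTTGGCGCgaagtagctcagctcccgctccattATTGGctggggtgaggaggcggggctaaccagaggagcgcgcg
*Mcm7* (chr12:22163179-22163298, - strand): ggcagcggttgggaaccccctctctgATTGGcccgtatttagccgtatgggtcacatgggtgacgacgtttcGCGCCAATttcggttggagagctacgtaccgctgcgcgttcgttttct
*Tyms* (chr9:120776084-120776203, - strand): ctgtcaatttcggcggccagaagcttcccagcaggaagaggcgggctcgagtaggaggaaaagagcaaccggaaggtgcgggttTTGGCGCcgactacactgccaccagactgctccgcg

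Among the mitotic kinases and cyclins, 5 of the 6 genes tested were lowered in the Cx at HS21, with log2 ratios of -1.44 to -0.27 over the group. *Cdk1* (ENSRNOG00000000632, chr20:20576377-20591549 in Rnor_6.0), the kinase that starts mitosis, stood at 9.41, 5.49, 10.6, 9.19 and 6.55 CPM in the Cx LS libraries, at 1.99, 4.22, 3.67, 4.66 and 3.38 CPM at HS14 and at 2.8, 2.79, 3.8, 2.88 and 4.49 CPM at HS21. Every HS library was below every LS library. Its log2 ratio to LS was -1.20 ± 0.24 (SE) at HS14 (adjusted *P* = 0.0281) and -1.30 ± 0.22 at HS21 (adjusted *P* = 0.000781), or 2.46-fold lower. Its promoter, shown above, holds TTTGAA and CCAAT more than once. *Ccnb1*, cyclin B1, fell by 1.28 at HS14 (adjusted *P* = 0.0476) and by 1.44 at HS21 (adjusted *P* = 0.00279) on the log2 scale, and *Ccna2*, cyclin A2, by 1.30 at HS21 (adjusted *P* = 0.000605). *Plk1*, the Polo kinase of spindle assembly, and *Melk*, a kinase read mainly in proliferating cells, had log2 ratios of -0.91 ± 0.32 and -0.71 ± 0.19 at HS21 and were both lowered (adjusted *P* = 0.041 and 0.0132). *Aurka*, the Aurora kinase of the centrosomes, did not pass the test at HS21 (-0.27 ± 0.20, adjusted *P* = 0.318). *Foxm1*, the transcription factor of the G2 and M phase genes, had the smallest ratios among the genes lowered at both times, -0.57 ± 0.12 at HS14 (adjusted *P* = 0.0348) and -0.41 ± 0.14 at HS21 (adjusted *P* = 0.0357).

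*Mki67* (ENSRNOG00000028137, chr1:207993895-208020454), whose product Ki-67 coats mitotic chromosomes and serves as the usual marker of proliferating cells, stood at 30.1, 22.1, 31.7, 31.1 and 23.8 CPM in Cx LS, at 7.41, 19.4, 16.9, 18.5 and 12.7 CPM at HS14 and at 12.6, 13.4, 11.1, 13 and 17.5 CPM at HS21. No HS library reached the lowest LS library. Its log2 ratio was -0.89 ± 0.21 at HS14, just short of the threshold (adjusted *P* = 0.0541), and -1.04 ± 0.14 at HS21 (adjusted *P* = 0.000205), or 2.05-fold lower. *Top2a*, the topoisomerase that untangles chromosomes, stood at 24.5, 12.7, 23.3, 24.6 and 14.4 CPM in Cx LS and at 8.84, 9.17, 8.71, 10.2 and 16.4 CPM at HS21. The groups overlapped through HS21 replicate 15, and the log2 ratio was -0.90 ± 0.23 (adjusted *P* = 0.00962). At HS14 the ratio of *Top2a* was -0.86 ± 0.27 (adjusted *P* = 0.115). Over the 15 Cx libraries the genes whose log2 CPM followed *Mki67* most closely among 14617 genes were *Cdca3* (Pearson's r = 0.961), *Top2a* (0.961), *Ccnb1* (0.956), *Cdk1* (0.951) and *Tpx2* (0.932). The libraries share the diet groups, and the coefficients are a description.

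Of the 6 kinetochore and checkpoint genes, 5 were lowered in the Cx at HS21 and 1 at HS14. *Cenpf*, a protein of the outer kinetochore, had the largest ratio of the group, from 13.1, 7.92, 13.3, 10.2 and 9.06 CPM on LS to 3.31, 4.12, 3.11, 1.9 and 5.17 CPM at HS21 without overlap (log2 ratio -1.61 ± 0.25, adjusted *P* = 0.000487). *Ttk*, the checkpoint kinase Mps1, fell by 1.31 on the log2 scale (adjusted *P* = 0.00101), *Nuf2* by 1.16 (adjusted *P* = 0.00655), *Bub1* by 0.89 (adjusted *P* = 0.00213) and *Bub1b* by 0.91 (adjusted *P* = 0.0499). Of 10 fits that each left out a library, *Bub1b* lost its call in 7, and *Plk1* and *Foxm1* in 6 each. *Ndc80*, which binds microtubules together with *Nuf2*, was lowered at HS14 (-1.37 ± 0.27, adjusted *P* = 0.027) and did not pass at HS21 (-0.71 ± 0.28, adjusted *P* = 0.0607). Its direct change from HS14 to HS21 was 0.66 ± 0.28 and did not pass either (adjusted *P* = 0.119).

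Both genes of the anaphase-promoting complex and all 3 spindle genes were lowered at HS21. *Cdc20*, the activator of the complex, fell by 1.10 (adjusted *P* = 0.000571) and *Ube2c*, its ubiquitin-conjugating enzyme, by 1.51 (adjusted *P* = 0.00622) on the log2 scale. *Tpx2*, which nucleates spindle microtubules, was lowered at HS14 (-0.92 ± 0.20, adjusted *P* = 0.0426) and at HS21 (-1.25 ± 0.19, adjusted *P* = 0.000509), and *Nusap1*, a spindle bundling protein, at HS21 (-0.99 ± 0.26, adjusted *P* = 0.0101). *Kif11*, the motor that pushes spindle poles apart, behaved unlike the others in its level. Per kilobase of gene length it stood at 23.6 CPM in Cx LS, where the other mitotic genes had means of 0.817 to 7.71 CPM per kilobase. It stood at 112, 95.4, 113, 117 and 121 CPM in Cx LS, 97.5, 120, 108, 103 and 57.5 CPM at HS14 and 79.3, 60.6, 68.1, 69.9 and 60.2 CPM at HS21. Its ratio to LS was -0.21 ± 0.15 at HS14 (adjusted *P* = 0.532) and -0.73 ± 0.09 at HS21 (adjusted *P* = 9.72e-05), and it was the only mitotic gene lowered from HS14 to HS21 (-0.52 ± 0.16, adjusted *P* = 0.05 as rounded, under the threshold before rounding). That call was lost in 9 of 10 fits without a library. Of all genes 9.69% were lowered and 6.5% raised in that comparison. No member had all HS21 libraries below all HS14 libraries, against 6.1% of all genes.

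The 8 genes of the chromosomal passenger complex and of cytokinesis had ratios of -1.80 to -0.16 in the Cx at HS21, and were not tested against each other. At HS21 *Prc1*, *Ect2*, *Anln* and *Kif23* were lowered, and *Aurkb*, *Birc5*, *Kif20a* and *Racgap1* did not pass the test. *Prc1* (ENSRNOG00000013057, chr1:142087208-142108746), which crosslinks the midzone of the spindle, stood at 16.4, 14.5, 21, 21.7 and 11.9 CPM in Cx LS, at 3.57, 10.2, 9.27, 7.28 and 8.06 CPM at HS14 and at 3.62, 6.57, 6.91, 3.47 and 5.31 CPM at HS21. The HS groups did not overlap with LS, and the log2 ratio was -1.16 ± 0.25 at HS14 (adjusted *P* = 0.0374) and -1.72 ± 0.23 at HS21 (adjusted *P* = 0.000211). *Ect2*, the exchange factor that activates RhoA at the cleavage furrow, fell from 11.6, 8.86, 13.6, 15.5 and 9.51 CPM on LS to 2.99, 4.58, 3.94, 2.68 and 2.79 CPM at HS21, with the largest ratio of all members in the Cx (-1.80 ± 0.20, adjusted *P* = 8.41e-05, 3.48-fold lower). *Anln*, the scaffold of the contractile ring, stood at 4.28, 3.76, 6.94, 7.2 and 4.95 CPM on LS and at 0.89, 1.73, 0.829, 1.96 and 2.86 CPM at HS21 (-1.71 ± 0.33, adjusted *P* = 0.00199). *Kif23*, the motor of the centralspindlin complex, had a ratio of -0.96 ± 0.19 (adjusted *P* = 0.0021). *Racgap1*, the partner of *Kif23* in that complex, was lowered at HS14 (-0.85 ± 0.19, adjusted *P* = 0.0458) and stood at -0.28 ± 0.19 at HS21 (adjusted *P* = 0.266). Its HS14 call was lost in 10 of 10 fits without a library, and it was not called between HS14 and HS21. *Birc5* (survivin) had a ratio of -0.57 ± 0.22 (adjusted *P* = 0.0557), *Kif20a* of -0.44 ± 0.19 (adjusted *P* = 0.0882) and *Aurkb* of -0.16 ± 0.25 (adjusted *P* = 0.625) at HS21.

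At HS14 the Cx had 8 mitotic genes lowered of 28 (*Cdk1*, *Ccnb1*, *Tpx2*, *Prc1*, *Foxm1*, *Ndc80*, *Racgap1* and *Ect2*), where 1.18% of 14181 genes were lowered and 1.14% raised. All 28 had a ratio below 0, with a median of -0.86. Of the 28, 27 had an unadjusted *P* under 0.05, where 8.31% of all genes had a ratio below 0 at that level. Of the 28, 12 had all 5 HS14 libraries below all 5 LS libraries, against 2.36% of all genes, and at HS21 it was 15 against 14.6%. The count at HS14 depended on the library left out. It was 0 without LS replicate 3, LS replicate 4 or HS14 replicate 8, 1 or 2 without LS replicates 1 or 2 or HS14 replicate 9, 5 without LS replicate 5, 4 without HS14 replicate 6, 11 without HS14 replicate 7, and it was 20 with DESeq2. In 10 fits that each left out a library, *Racgap1* lost its call in 10, *Ccnb1* in 9, *Tpx2* in 8 and the others in 4 to 7. None of the 8 ratios changed sign in these fits. The share of all genes called was not counted for DESeq2, limma or the fits without a library, here or in the other comparisons. A lower count in such a fit can therefore not be set against that of all genes.

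In the OM the mitotic genes had ratios of the same size, and fewer passed the test. At HS21, 6 of 28 were lowered (*Top2a*, *Cdk1*, *Ccna2*, *Bub1b*, *Prc1* and *Ect2*) and none was raised, where 0.131% of 14555 genes (19 genes) were lowered and 0.639% raised. All 28 had a ratio below 0, the median was -0.98, and DESeq2 called 20. Of the 28, 23 had an unadjusted *P* under 0.05, where 4.29% of all genes had a ratio below 0 at that level. In 17 of the 28 all HS21 libraries lay below all LS libraries, against 1.04% of all genes. The count fell to 0 without LS replicates 1, 3 or 4 or HS21 replicates 11, 14 or 15, each left out alone, and to 2 without HS21 replicate 12. Without LS replicate 2, it was 8.

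*Cdk1* stood at 8.18, 7.35, 7.32, 6.42 and 6.03 CPM in OM LS, at 2.71, 4.84, 4.19, 2.43 and 1.79 CPM at HS14 and at 2.5, 2.24, 3.97, 2.7 and 2.23 CPM at HS21, without overlap between LS and HS. Its log2 ratio at HS21 was -1.37 ± 0.19 (adjusted *P* = 0.0197). *Top2a* fell from 23.9, 16.1, 27, 24.5 and 17.1 CPM to 8.42, 8.83, 8.51, 5.57 and 11.4 CPM at HS21 (-1.35 ± 0.21, adjusted *P* = 0.0288). *Prc1* went from 13.7, 10.8, 10.5, 13.2 and 11 CPM on LS to 4.41, 4.97, 7.75, 3.95 and 3.85 CPM (-1.25 ± 0.20, adjusted *P* = 0.0288), and *Ect2* from 7.57, 8.21, 7.26, 7.44 and 5.55 CPM to 2.96, 1.68, 3.84, 2.76 and 2.85 CPM (-1.35 ± 0.21, adjusted *P* = 0.0286). Neither pair of groups overlapped. *Ccna2* and *Bub1b*, a kinase of the spindle checkpoint, fell by 1.32 (adjusted *P* = 0.0288) and 1.24 (adjusted *P* = 0.0415) on the log2 scale. *Cenpf* had the largest ratio of the class in the OM but also a wide error, with 13.9, 8.72, 11.8, 13.3 and 7.65 CPM on LS and 3.54, 5.32, 3.4, 0.659 and 3.6 CPM at HS21 (-1.75 ± 0.43, adjusted *P* = 0.0986). *Mki67* stood at 27.9, 16, 22.5, 21 and 15.2 CPM on LS and 11.4, 14, 9.96, 5.51 and 13.4 CPM at HS21 without overlap, and did not pass over all genes (-0.92 ± 0.27, adjusted *P* = 0.158). By role, the median ratios were -0.83 for the kinases and cyclins, -1.14 for the kinetochore and checkpoint genes, -1.06 for the anaphase-promoting complex, -1.22 for the spindle genes and -0.93 for the passenger and cytokinesis genes, in which *Racgap1* stood at -0.08. For *Mki67* the exact permutation test of its log2 CPM alone gave *P* = 0.00794 (two-sided), the smallest value that 5 against 5 libraries allow. Groups without overlap give this value, so it restates the missing overlap, and it is not adjusted over genes.

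At HS14 no member passed in the OM with edgeR, where 1 of 14417 genes was raised (0.00694%) and none was lowered. All 28 mitotic ratios were below 0, with a median of -0.87. Of them 17 had an unadjusted *P* under 0.05, where 1.45% of all genes had a ratio below 0 at that level. DESeq2 called 7 of the mitotic genes and limma 0. In 11 of them all HS14 libraries lay below all LS libraries, against 0.486% of all genes. *Ect2* had the largest ratio (-1.32 ± 0.32, adjusted *P* = 0.427). HS14 replicate 10 stood apart in some genes and not in others. *Mki67* was at 5.97, 9.5, 9.79, 13.3 and 35.6 CPM at HS14, the last value being that of replicate 10, and *Cenpf* at 2.58, 4.84, 3.04, 3.35 and 18.6 CPM. *Cdk1* in replicate 10, at 1.79 CPM, was the lowest of its group. Without replicate 10 the log2 ratio of *Mki67* went from -0.48 ± 0.44 to -1.09 (adjusted *P* = 0.326), and without it and LS replicate 2 together to -1.17 (adjusted *P* = 0.194). Between HS14 and HS21 no member passed in the OM (edgeR, DESeq2 and limma each 0, where edgeR called 0% of all genes). At an unadjusted *P* under 0.05, 1 mitotic gene had a ratio below 0, against 1.45% of all genes.

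**Figure D3:**
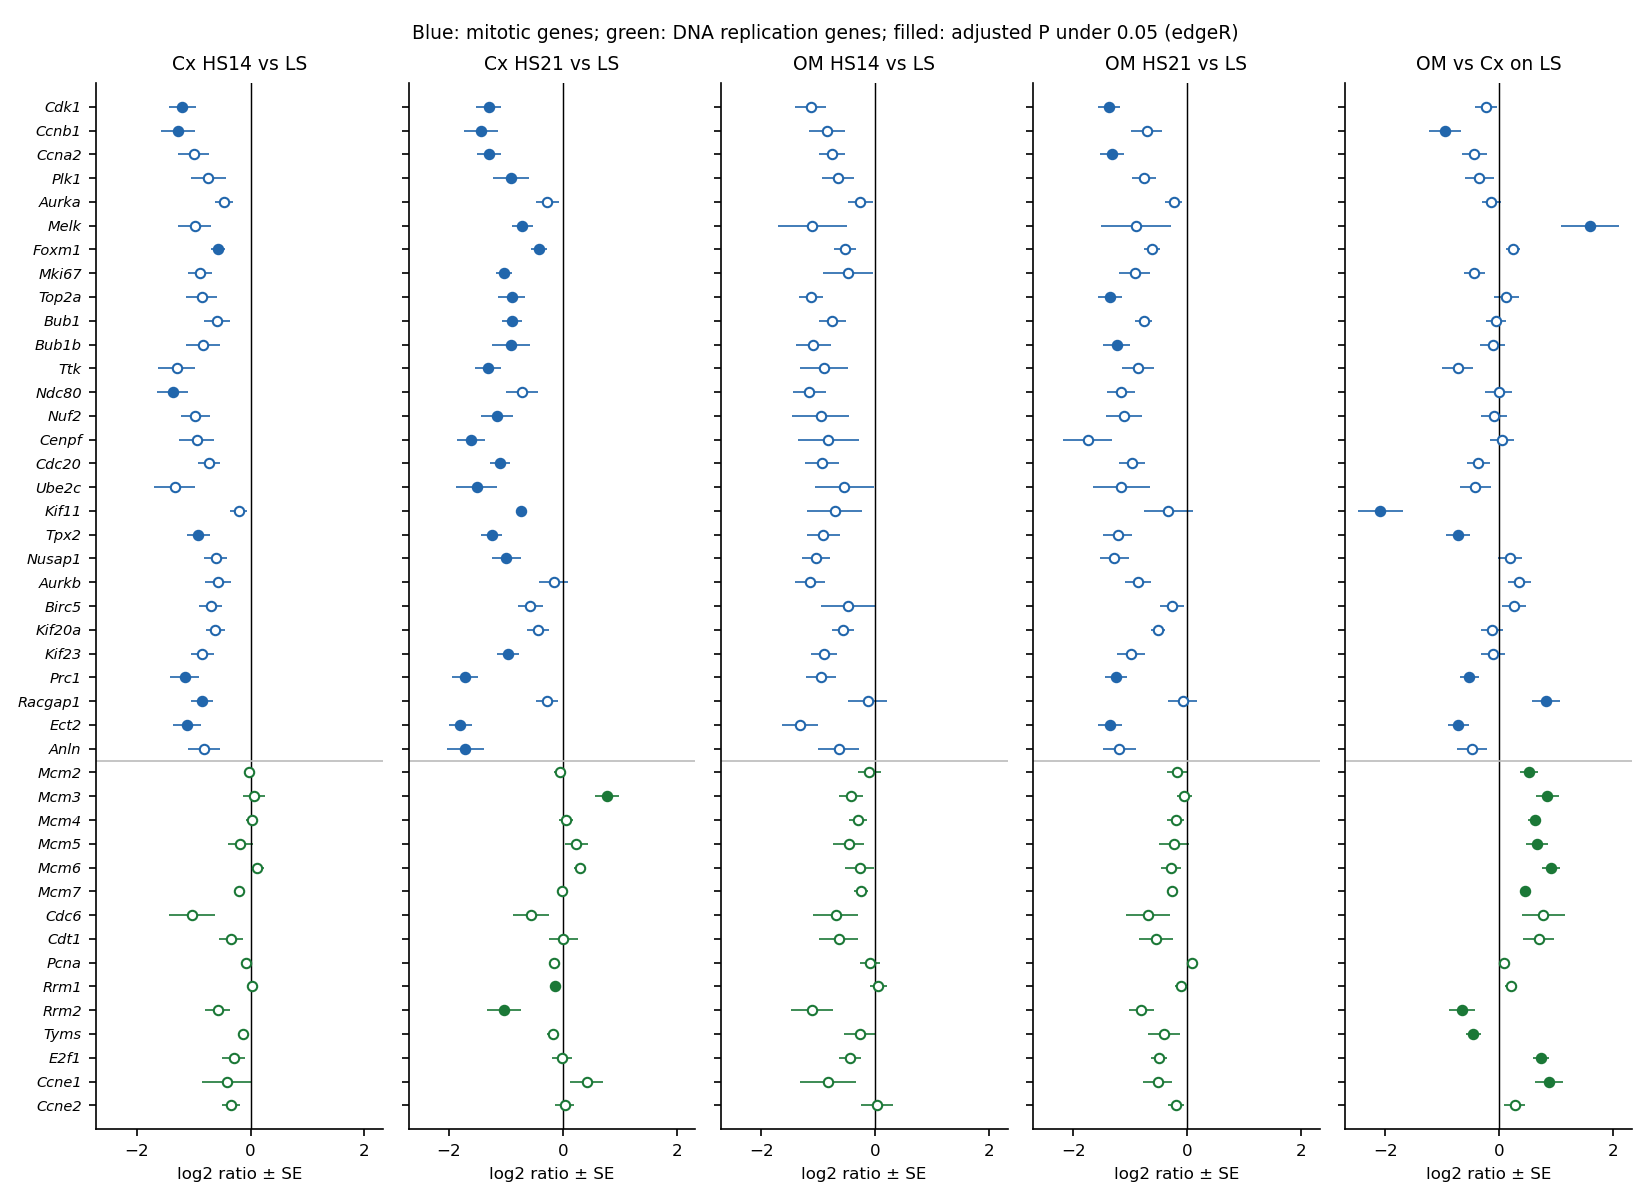
Log2 ratio (points) and SE (lines) of the 43 genes in 5 comparisons, mitotic genes in blue above the grey line and replication genes in green below it, filled where the adjusted *P* was under 0.05. The mitotic points lie left of 0 in all 4 diet comparisons, with medians of -0.86, -0.98, -0.87 and -0.98, and the replication points scatter around or slightly left of 0, with medians of -0.18, -0.01, -0.30 and -0.26.

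Of the 6 subunits of the replicative helicase, *Mcm3* was raised in the Cx at HS21 and the other 5 did not pass. *Mcm3* (ENSRNOG00000012543, chr9:26914057-26932201) stood at 7.57, 4, 5.4, 6.17 and 3.98 CPM in Cx LS, at 4.25, 6.99, 5.85, 6.24 and 5.14 CPM at HS14 and at 8.33, 7.57, 8.57, 9.55 and 12.7 CPM at HS21. The HS14 libraries overlapped with LS, and every HS21 library was above the highest LS library, in the closest case by less than the rounding. Its ratio at HS21 was 0.78 ± 0.21 (adjusted *P* = 0.0108, 1.72-fold higher), and from HS14 to HS21 it was 0.72 ± 0.18 (adjusted *P* = 0.0215), a call lost only without HS14 replicate 8. *Mcm6* had all HS21 libraries above all LS libraries (7.65, 7.22, 7.17, 8.01 and 8.09 CPM against 8.96, 10.1, 8.43, 8.37 and 11.1 CPM), with a ratio of 0.30 ± 0.11 (adjusted *P* = 0.0545). *Mcm2* stood at 17.6, 20.2, 23, 21.5 and 20.4 CPM on LS and 23.2, 18.5, 21.6, 17.7 and 18.3 CPM at HS21 (-0.05 ± 0.10, adjusted *P* = 0.709, and 0.08 with scaling by total counts). The ratios of *Mcm4*, *Mcm5* and *Mcm7* were 0.06, 0.24 and -0.01. The helicase loaders stood at -0.56 ± 0.32 (*Cdc6*, adjusted *P* = 0.184) and 0.01 ± 0.25 (*Cdt1*, adjusted *P* = 0.982), with *Cdc6* at only 0.54 to 1.68 CPM in Cx LS and 0.531 to 0.898 CPM at HS21.

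*Pcna*, the sliding clamp and the most abundant member per kilobase in Cx LS (37.3 ± 1.47 CPM per kilobase, SD), stood at 45.7, 44.2, 42.1, 43.1 and 41.4 CPM on LS and at 39.9, 39.6, 34.5, 40.4 and 40.1 CPM at HS21. All HS21 libraries were below all LS libraries, by a small amount (-0.16 ± 0.06, adjusted *P* = 0.0576). Ribonucleotide reductase makes deoxynucleotides from a large subunit, *Rrm1*, and a small subunit, *Rrm2*, which is made in S phase. *Rrm2* stood at 5.2, 6.04, 6.86, 9.41 and 5.52 CPM in Cx LS and at 1.34, 3.32, 2.56, 3.86 and 5.1 CPM at HS21 without overlap (-1.03 ± 0.30, adjusted *P* = 0.0179, 2.04-fold lower). *Rrm1* was lowered by far less (-0.14 ± 0.05, adjusted *P* = 0.0426). It lost its call in 5 of 6 other settings and in 8 of 10 fits without a library, so that the count of replication genes lowered went from 2 to 1 without any of LS replicates 1, 3, 4 and 5 and of HS21 replicates 11, 12, 14 and 15. *Tyms*, thymidylate synthase, had a ratio of -0.17 ± 0.11 (adjusted *P* = 0.245). The G1/S regulators did not pass at HS21. *Ccne1*, cyclin E1, was at 0.841, 0.784, 1.08, 1.03 and 1.03 CPM on LS and 1.97, 1.13, 1.45, 1.24 and 0.612 CPM at HS21 (0.42 ± 0.29, adjusted *P* = 0.271), *E2f1* had a ratio of -0.01 and *Ccne2*, cyclin E2, of 0.03. *Ccne2* was raised from HS14 to HS21 (0.37 ± 0.11, adjusted *P* = 0.0452), with 6.24, 7.13, 6.85, 5.99 and 6.24 CPM at HS14 and 9.54, 8.37, 8.29, 8.44 and 7.28 CPM at HS21. That call was lost in 9 of 10 fits without a library and in 3 of 6 other settings.

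**Figure D4:**
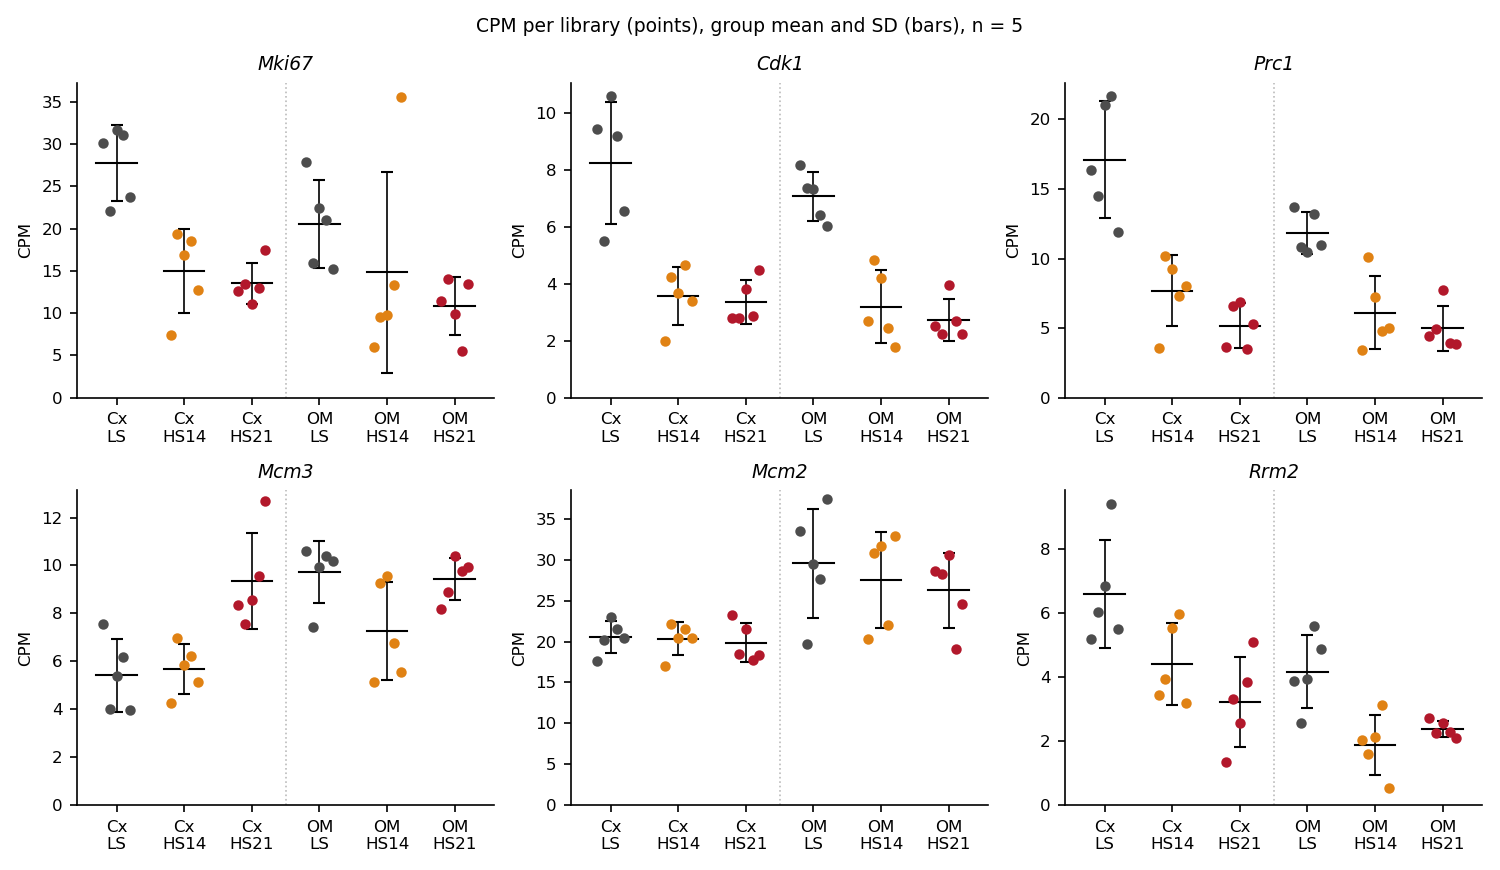
CPM of 3 mitotic genes (*Mki67*, *Cdk1*, *Prc1*) and 3 replication genes (*Mcm3*, *Mcm2*, *Rrm2*) in each library, with the group mean and SD (n = 5 libraries per group). *Cdk1* lies at 5.49 to 10.6 CPM in Cx LS and at 1.99 to 4.66 CPM in the Cx HS libraries, *Mcm3* at 3.98 to 7.57 CPM in Cx LS and at 7.57 to 12.7 CPM in Cx HS21, and *Mcm2* overlaps between the diets.

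At HS14 no replication gene passed in the Cx (edgeR, DESeq2 and limma each 0). Of the 15, 3 had a ratio below 0 at an unadjusted *P* under 0.05, against 8.31% of all genes. The median ratio of the 15 was -0.18, and *Cdc6* (-1.03 ± 0.41, adjusted *P* = 0.217) and *Rrm2* (-0.58 ± 0.22, adjusted *P* = 0.198) had the largest. In the OM at HS21 none of the 15 passed with edgeR or limma, and DESeq2 called 2. There 3 had a ratio below 0 at an unadjusted *P* under 0.05, against 4.29% of all genes. The ratios of the 15 ran from -0.81 to 0.08, and 14 of 15 were below 0. *Rrm2* was again the lowest, at 3.88, 2.56, 3.95, 5.59 and 4.88 CPM on LS and 2.73, 2.24, 2.58, 2.28 and 2.11 CPM at HS21 (-0.81 ± 0.22, adjusted *P* = 0.132), followed by *Cdc6* (-0.69 ± 0.39, adjusted *P* = 0.591) and *Cdt1* (-0.55 ± 0.30, adjusted *P* = 0.572). *Mcm2* had a ratio of -0.17 ± 0.18 (adjusted *P* = 0.838), *Pcna* of 0.08 ± 0.08 (adjusted *P* = 0.83), *Ccne1* of -0.52 ± 0.25 (adjusted *P* = 0.485) and *Mcm3* of -0.05 ± 0.13 (adjusted *P* = 0.955). At HS14 in the OM the replication ratios ran from -1.10 (*Rrm2*) to 0.06 (*Rrm1*), 13 of 15 below 0, with none called by edgeR, DESeq2 or limma. At an unadjusted *P* under 0.05, 1 had a ratio below 0, against 1.45% of all genes. *Ccne1* had no count in HS14 replicate 10, where 3 counts would be 0.555 CPM of the unscaled total.

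The class means given above were also subtracted within each library, which restates them and is not separate evidence. The mitotic mean minus the replication mean (log2 CPM) was -0.07, -0.31, 0.09, 0.12 and -0.32 in Cx LS, -1.0, -0.47, -0.73, -0.64 and -0.86 at HS14, and -1.30, -1.01, -1.13, -1.06 and -0.76 at HS21. Both HS groups of the Cx lay below LS. In the OM the difference was -0.68, -0.31, -0.61, -0.72 and -1.21 on LS, -1.19, -0.93, -1.31, -1.12 and -1.27 at HS14, and -1.66, -1.25, -1.30, -1.37 and -1.05 at HS21. There LS replicate 5, the lowest of its group, overlapped with both HS groups, and the other 4 LS libraries did not.

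A difference of the diet response between Cx and OM was tested with an interaction term over 20 libraries. No member passed at HS14 or at HS21, where 0% of 15091 genes were called at HS14, and at HS21 0.448% of 15194 genes had a higher and 0.217% a lower HS21 to LS ratio in the OM than in the Cx. None of the 28 mitotic genes had an unadjusted *P* under 0.05 at either time, and DESeq2 and limma called none. Their interaction ratios at HS21 ran from -0.70 to 0.73. Of the replication genes 5 had an unadjusted *P* under 0.05 at HS21, *Ccne1* (-0.95 ± 0.38, adjusted *P* = 0.242), *Mcm3* (-0.83 ± 0.25, adjusted *P* = 0.122), *Mcm6* (-0.58 ± 0.21, adjusted *P* = 0.193), *E2f1* (-0.48 ± 0.23, adjusted *P* = 0.316) and *Pcna* (0.23 ± 0.10, adjusted *P* = 0.255), and DESeq2 called 1. Of all genes 8.99% had a lower and 6.59% a higher ratio in the OM at an unadjusted *P* under 0.05. Without OM LS replicate 2, edgeR called 2 of the replication genes.

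On the LS diet the tissues differed in 10 replication and 7 mitotic genes. Of the 15 replication genes 8 were higher in the OM (*Mcm2* to *Mcm7*, *E2f1* and *Ccne1*) and 2 were lower (*Rrm2* and *Tyms*), where 21.3% of 14295 genes were higher and 19.5% lower. All 6 helicase subunits were higher, by 0.45 (*Mcm7*, adjusted *P* = 0.000884) to 0.90 (*Mcm6*, adjusted *P* = 0.00116) on the log2 scale. *Mcm6* stood at 7.65, 7.22, 7.17, 8.01 and 8.09 CPM in the Cx and at 16.3, 9.4, 13, 15.4 and 17.6 CPM in the OM, and the lowest OM value was that of LS replicate 2. *E2f1* was at 4.21, 3.69, 5.32, 5.66 and 4.62 CPM in the Cx and 7.94, 7.61, 7.26, 8.84 and 7.52 CPM in the OM (0.73 ± 0.14, adjusted *P* = 0.00215). *Ccne1* was higher by 0.87 ± 0.25 (adjusted *P* = 0.0166), *Rrm2* lower by 0.66 and *Tyms* by 0.46 (log2 ratios of -0.66 ± 0.23 and -0.46 ± 0.13, adjusted *P* = 0.0406 and 0.0167). With the replicate number as a block, 8 replication genes were higher and 1 was lower.

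Of the 28 mitotic genes 5 were lower in the OM on LS (*Kif11*, *Ccnb1*, *Tpx2*, *Ect2* and *Prc1*) and 2 were higher (*Melk* and *Racgap1*). Of all 14295 genes tested 19.5% were lower and 21.3% higher. The mitotic shares are no larger than these, and nothing is read from the counts. *Kif11* stood at 18.5, 53.2, 27.8, 24.7 and 7.86 CPM in the OM, all below the Cx LS values given above (-2.09 ± 0.39, adjusted *P* = 0.00186, 4.25-fold lower). *Melk* ran the other way, from 5.96, 4.55, 5.63, 8.09 and 8.03 CPM in the Cx to 15, 40.1, 18.8, 21 and 2.91 CPM in the OM (1.59 ± 0.51, adjusted *P* = 0.0305). Both genes were highest among the OM LS libraries in replicate 2, with the most proximal tubule transcripts (25500 CPM), and lowest in replicate 5, with the fewest (3810 CPM). Between the tissues only *Kif11* went the same way as these transcripts, which summed to 23200 to 25800 CPM in Cx LS. Its mean was 112 CPM in Cx LS and 26.4 CPM in OM LS, and that of *Melk* was 6.45 and 19.5 CPM. The part of the tubule segments in these values was not tested. *Ccnb1*, *Tpx2*, *Ect2* and *Prc1* had ratios of -0.95 ± 0.28, -0.73 ± 0.21, -0.72 ± 0.18 and -0.53 ± 0.17 (adjusted *P* = 0.0215, 0.0181, 0.00807 and 0.0275), and *Racgap1* of 0.82 ± 0.25 (adjusted *P* = 0.0249). *Melk* and *Racgap1* were not called by limma. They lost their calls in 8 and 6 of the 10 fits that each left out an LS library, and with the replicate number as a block none was higher (adjusted *P* = 0.149 and 0.0769) and 6 mitotic genes were lower. *Mki67* (-0.44 ± 0.18, adjusted *P* = 0.0699), *Top2a* (0.12 ± 0.22, adjusted *P* = 0.688), *Cdk1* (-0.23 ± 0.19, adjusted *P* = 0.356, and 0.01 with scaling by total counts) and *Pcna* (0.09 ± 0.06, adjusted *P* = 0.26) did not pass.

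Genes of the same pathways outside the 44, from lists also chosen with earlier results of these data known, were counted in the same way. Of 48 other mitotic genes tested 27 were lowered and 1 was raised at HS21, where 20.5% and 18.9% of all genes were, with a median ratio of -0.88. The largest were *Pbk* (-2.05), *Hmmr* (-1.96), *Troap* (-1.67), *Cdca3* and *Ckap2l* (both -1.64), and the gene raised was *Mybl2* (0.49 ± 0.18, adjusted *P* = 0.0478), the B-Myb subunit of the complex that activates mitotic genes. Of 46 rows of other replication genes (*Dbf4* stands in 2 rows) 4 were raised, a smaller share than the 18.9% of all genes, with a median ratio of 0.07 over the list. Raised were *Orc1* (0.99 ± 0.23) of the origin recognition complex, *Donson* (0.79 ± 0.23), *Timeless* (0.40 ± 0.13) and *Gins2* (0.32 ± 0.09), and *Tk1* (-0.46 ± 0.13), a thymidine kinase that supplies nucleotides, was lowered. At HS14 in the Cx, where 1.18% of all genes were lowered, 3 of 48 other mitotic genes (*Troap*, *Ckap2* and *Spc24*) were lowered. In the OM at HS21, where 0.131% of all genes were lowered, 4 of 46 other mitotic genes (*Cdkn3*, *Ckap2*, *Espl1* and *Hmmr*) and none of 47 other replication rows were lowered. At HS14 in the OM none of either list was called by edgeR, with 25 and 4 at an unadjusted *P* under 0.05 and a ratio below 0. Of all genes 1.45% had a ratio below 0 at that level.

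The lists of G1 genes and of cell cycle inhibitors had calls in the Cx at HS21 at shares close to or below those of all genes (18.9% raised and 20.5% lowered), and nothing is read from their counts. Of 13 genes of the G1 cyclins and kinases, *E2f2* was raised (0.43 ± 0.14) and *E2f3* (-0.72 ± 0.16), *Ccnd1* (-0.37 ± 0.13, adjusted *P* = 0.0441) and *Rb1* (-0.26 ± 0.09) were lowered. *Ccnd1*, cyclin D1, answers growth signals in G1. Of 11 CDK inhibitors and p53 targets *Cdkn1c* (p57, 0.66 ± 0.12, adjusted *P* = 0.000979) and *Gadd45a* (0.29 ± 0.09) were raised and *Sesn2* (-0.46 ± 0.06) was lowered. *Cdkn1a* (p21), which blocks the cyclin-dependent kinases, had ratios of 0.60 ± 0.22 at HS14 and 0.57 ± 0.22 at HS21 in the Cx (adjusted *P* = 0.185 and 0.0609) and of 0.76 ± 0.24 and 0.74 ± 0.36 in the OM (adjusted *P* = 0.594 and 0.499), none past the threshold. In the OM none of these 2 lists was called by edgeR at either time (3 genes at HS14 and 5 at HS21 at an unadjusted *P* under 0.05), and *Ccnd1* had ratios of -0.16 ± 0.14 and -0.10 ± 0.15 (adjusted *P* = 0.994 and 0.901). At that unadjusted level 4.28% of all genes had a ratio above 0 and 1.45% below 0 at HS14, and 6.95% and 4.29% at HS21.

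Markers of other cell types moved in the same comparisons. In the Cx at HS21 9 of 9 general leukocyte, 7 of 7 T cell and 9 of 9 macrophage markers tested were raised, out of 10 listed for each, and 11 of 12 proximal tubule markers were lowered. Of the distal convoluted tubule markers 3 of 3 tested were raised, and of the neutrophil markers 2 of 2. Of all genes tested 18.9% were raised and 20.5% lowered in that comparison. General leukocyte markers summed to 144 to 203 CPM in Cx LS, to 214 to 301 CPM at HS14 and to 282 to 837 CPM at HS21, and in the OM to 127 to 279, 331 to 383 and 404 to 601 CPM. T cell markers summed to 25.8 to 39.9, 45.8 to 61.8 and 54.9 to 189 CPM in the Cx and to 15 to 58.3, 63 to 77.6 and 66.9 to 140 CPM in the OM. Most of the T cell sum was *Cd4*, with means of 25.9 CPM of 33.8 in Cx LS and 67.7 CPM of 115 in Cx HS21. *Cd3e* had means of 0.357 and 5.63 CPM there. The sum therefore follows *Cd4* more than the other T cell markers. Macrophage markers summed to 136 to 179, 167 to 291 and 239 to 797 CPM in the Cx and to 70.8 to 310, 219 to 389 and 336 to 579 CPM in the OM. The leukocyte and T cell sums were higher on the HS diet in both tissues, where the mitotic genes were lower. *Ptprc* (CD45) was counted in all libraries and rose by 1.86 ± 0.26 in the Cx (adjusted *P* = 0.000266) and by 1.70 ± 0.27 in the OM at HS21 (adjusted *P* = 0.0288). *Cd3e* rose by 3.95 ± 0.59 in the Cx (adjusted *P* = 0.000408) and had a ratio of 2.43 ± 0.56 in the OM (adjusted *P* = 0.0817). Of the defining T cell markers *Cd3d* had no count in 1 library and *Cd5* in 4.

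Proximal tubule markers summed to 23200 to 25800 CPM in Cx LS, to 17700 to 23400 CPM at HS14 and to 13900 to 18200 CPM at HS21, and in the OM to 3810 to 25500, 6390 to 13300 and 5070 to 13000 CPM. *Slc34a1*, the phosphate transporter of this segment, was lowered in the Cx at HS21 (-0.45 ± 0.11, adjusted *P* = 0.00663) and stood at -0.39 ± 0.76 in the OM (adjusted *P* = 0.936). Markers of injured tubules summed to 394 to 591, 599 to 938 and 659 to 1410 CPM in the Cx. At HS21 6 of 8 were raised and 1 lowered, against 18.9% and 20.5% of all genes. In the OM at HS21 5 of 9 general leukocyte and 1 of 8 T cell markers were raised and none of 12 proximal tubule markers was called by edgeR (0 at an unadjusted *P* under 0.05). Of all genes 0.639% were raised and 0.131% lowered there, and 4.29% had a ratio below 0 at the unadjusted level. The part of these cell types in the levels of the mitotic genes was not tested.

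**Figure D5:**
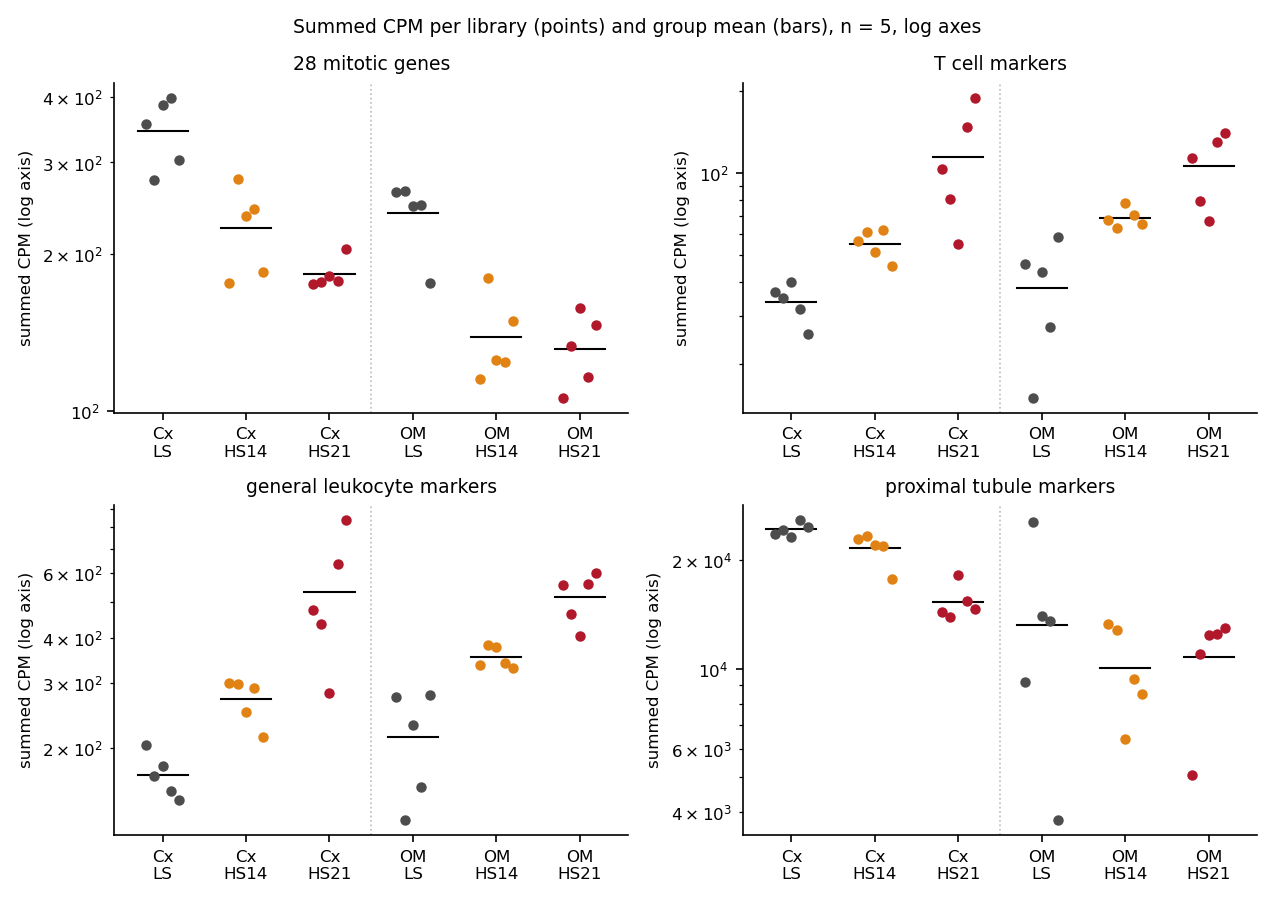
Summed CPM (log axis) of the 28 mitotic genes and of T cell, general leukocyte and proximal tubule markers in each library, with the group mean as a bar (n = 5 libraries per group). The mitotic sum runs from 278 to 399 CPM in Cx LS and from 175 to 205 CPM in Cx HS21, while the T cell sum, most of it *Cd4*, runs from 25.8 to 39.9 CPM and from 54.9 to 189 CPM. *Kif11* alone makes up a mean of 112 CPM of 345 in Cx LS, 67.6 of 183 in Cx HS21 and 26.4 of 240 in OM LS.

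Scaling by total counts in place of TMM gave a median log2 ratio over all genes of 0.13 in the Cx at HS21, both against LS and against HS14, and of 0.27 between the tissues, where TMM gave 0.00, 0.01 and 0.03. With it 4401 genes were raised and 1653 lowered in the Cx at HS21 against LS, in place of 2702 and 2936. Against HS14 the numbers were 2084 and 644 in place of 935 and 1395, and between the tissues 5546 and 1842 in place of 3051 and 2794. The count of mitotic genes lowered in the Cx at HS21 was 19 with this scaling, and it lay between 19 and 25 under all alternatives that were run.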

How the data were processed

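Poly(A) mRNA libraries of 30 rat kidney samples (Cx and OM, 3 diet groups, 5 libraries each) were analysed. Per the labels and the study's methods, the authors aligned reads with HISAT2 (2.0.5) to the Ensembl genome Rnor_6.0 and counted read pairs per gene without strand with featureCounts (1.5.0-p3), and used StringTie (1.3.3b) to predict further transcripts. The deposited table held raw counts, FPKM (counts relative to gene length and library total, by the authors), gene length and the authors' own comparisons (group means, fold changes and p-values from DESeq2), which were not used. Genes that overlap or share reads with close copies cannot be told apart in such counts.

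Counts were tested with edgeR 4.0.16 (R 4.3.3) by the quasi-likelihood test, using TMM scaling, filterByExpr and Benjamini-Hochberg adjustment over all genes tested, at an adjusted *P* under 0.05. Each comparison was fitted on its own groups, and the tissue by diet interaction on 4 groups. CPM were TMM-scaled over all 30 libraries, and log2 CPM carry a prior count of 2. No batch was named in the labels. The fit was tested on simulated data. Alternatives were DESeq2 1.42.0 (Wald), total-count and RLE scaling, no filter, limma 3.58.1 on log2(FPKM + 1) for genes with a mean FPKM of at least 0.1, all 15 libraries of a tissue, a replicate block and leaving out each library. Single genes were tested with the exact two-sided permutation test (252 regroupings). Errors are SEs of the fits or SDs over the 5 libraries of a group. The floor given for a gene with no count in a library is 3 counts and covers counting error only.

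The members and lists were chosen with earlier results of these data known. Named were members past the threshold in any comparison, the 3 largest per class in the Cx and OM at HS21, *Mki67*, *Top2a*, *Cdk1*, *Mcm2*, *Pcna* and *Ccne1*, up to 4 genes per pathway list and comparison, *Cdkn1a* and *Ccnd1*. Other members were named after their values were seen, to account for every gene, as were further genes of short lists of calls. Promoters came from RefSeq (GRCr8), gene coordinates from the deposited table (Rnor_6.0). The result of 1 gene of the list of other replication genes is not reported here.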

Additional observations from a re-analysis of the deposited data

Results flagged for a closer look

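Dixon's test of the highest and lowest library was run on 96 groups of 5 values (16 measures), and 12 groups held a library past the critical value of 0.71, where chance gives about 1 in 20 groups. Of these, 4 were values of OM HS14 replicate 10, the library with the lowest depth and, by the study's mapping results, the lowest share of bases in exons. *Mki67* stood at 35.6 CPM there (5.97 to 13.3 CPM in the other 4 libraries) and *Cenpf* at 18.6 CPM (2.58 to 4.84 CPM). *Pcna* stood at 25.9 CPM (45.1 to 51.4 CPM), and *Ccne1* at 0 CPM (1.07 to 1.28 CPM), where 3 counts would be 0.555 CPM of the unscaled total.

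In OM HS21 replicate 13, *Cdk1* at 3.97 CPM (2.23 to 2.7 CPM in the others), *Prc1* at 7.75 CPM (3.85 to 4.97 CPM) and *Ccne1* at 1.58 CPM (1.05 to 1.2 CPM) were high. *Mcm3* was low in OM LS replicate 2, at 7.44 CPM (9.93 to 10.6 CPM). In the Cx, *Top2a* was high in HS21 replicate 15, at 16.4 CPM (8.71 to 10.2 CPM), and *Pcna* was low in HS14 replicate 7, at 38.1 CPM (41.2 to 42.3 CPM), and in HS21 replicate 13, at 34.5 CPM (39.6 to 40.4 CPM). The mean log2 CPM of the replication genes was low in Cx HS14 replicate 6, at 2.44 (2.85 to 2.96).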

How the results depend on the processing

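Mitotic genes lowered in the Cx at HS14 (8) numbered 20 with DESeq2, 1 with limma and 0 to 11 without a library. Those in the OM numbered 7 with DESeq2 at HS14 (0 reported), and at HS21 (6 reported) 20 with DESeq2, 3 with total-count scaling and 0 to 8 without a library. In the Cx at HS21 replication genes lowered (2) numbered 1 with DESeq2, total-count scaling, RLE or no filter and 1 to 2 without a library, those raised (1) 2 with total-count scaling or RLE and 1 to 2 without a library, and mitotic genes lowered 19 to 25. From HS14 to HS21 in the Cx the mitotic gene lowered went to 0 with total-count scaling, RLE, no filter or limma (0 to 1 without a library), and the 2 replication genes raised to 1 with no filter, limma or all 15 libraries (0 to 2 without a library). With all 15 libraries 1 mitotic gene was raised and 1 replication gene lowered (0 to 1 without a library). In the OM at HS21 DESeq2 lowered 2 replication genes. Of the interaction at HS21, replication genes lower in the OM numbered 1 with DESeq2 and 0 to 2 without a library. The causes were not tested.

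Between the tissues mitotic genes raised (2) numbered 4 with total-count scaling, 0 with limma and 0 to 1 without a library, those lowered (5) 2 and 3 to 7. Replication genes lowered (2) numbered 0 with total-count scaling, 1 with no filter and 1 to 2 without a library, those raised (8) 6 to 11. With total-count scaling the median replication ratio was 0.12 in the Cx at HS21 and 0.87 between the tissues. Ratios that changed sign were *Mcm2* in the Cx at HS14 (0.02 without LS replicate 3, 0.04 without HS14 replicate 6) and at HS21 (0.08, total-count scaling), *Pcna* in the OM at HS14 (-0.15 to 0.04 without a library, 0.04 without HS14 replicate 10, with or without LS replicate 2 left out as well, a choice made after seeing the data), and between the tissues *Cdk1* (0.01, total-count scaling) and *Top2a* (-0.02 to 0.20 without a library, lowest without Cx LS replicate 2). None of these was called.

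With the replicate number as a block, mitotic genes raised between the tissues went from 2 to 0 and replication genes lowered from 2 to 1. Same-numbered Cx and OM libraries deviated together at over 0.1 in 11 of 15 pairs (-0.07 to 0.48), and 12 of 15 libraries correlated best with their own number. Not every pair passed 0.1, so pairing was not assumed. Fits without a library were not run for the interaction at HS14. Depth limits the genes near 1 CPM (*Cdc6*, *Ccne1*), most of all in OM HS14 replicate 10.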
